A study of Mus musculus with 13 samples.

Results

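Developmental transcription factor genes were followed in mouse total RNA on 13 two-colour arrays, each hybridised with RNA labelled NT1 against RNA labelled TBV in opposite dyes. The families were Hox, Pax, sine oculis (the family of Six5), Lhx, Nkx, Dlx, Msx, Gata, Sox, Fox and Tbx. A gene was a member when its probe carried exactly 1 gene symbol of these families, with 4 symbols left out by name and probes of a gene averaged. This gave 31 of the 9669 named genes, on 35 probes: 13 Fox, 6 Hox, 3 Pax, 3 Sox, 2 Tbx and 1 each of Dlx, Gata, Nkx and the sine oculis family, with no Lhx or Msx gene. Of the 31, 3 fit the spelling and not the function: Foxred2 encodes a flavoprotein of the endoplasmic reticulum, Paxbp1 a protein that binds Pax3 and Pax7, and Hoxa11os the antisense RNA of Hoxa11.

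The series title names a Sall4 -/- genotype with NT1 and sets it against TBV. Sall4 encodes a zinc finger protein that acts in pluripotent cells. The labels give neither cell type nor strain, agent, age, allele, clone number or pooling for either source. A mouse embryonic stem cell line called TBV2 exists. The arrays held NT1p14 with TBVp13 (5 arrays), NT1p12 with TBVp12 (4 arrays), NT1 1 with TBV2 (2 arrays) and NT1p12 with TBVp13 (2 arrays). Numbers such as p14 were taken for passages, a word the labels use. In every source pair NT1 was in Cy5 on some arrays and in Cy3 on the others. The pair NT1p12 with TBVp13 shares both of its sources with other pairs, so the first 3 pairs were used as independent replicates (n = 3). Nothing in the labels says that they came from separate clones, so p-values measure the spread between these preparations.

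Values are log2 ratios of NT1 over TBV, and a value of 1 is a doubling. Cy5 was taken as the numerator. No source used here states it, so all signs together could be the reverse. NT1p14 with TBVp13 and NT1p12 with TBVp12 opposed each other across all 7978 genes with a value in the 3 pairs (Pearson r = -0.48 across genes, which are not replicates). The direction of a single pair is therefore not settled either, and counts are also given with each pair turned. Part of the decimals is missing from the table: 19.3% of all 220028 values, and 75 of the 348 values of member probes (21.6%), were whole numbers. The loss was not even over sizes: of 19859 values of size 1 or more, only 79 held decimals. Nearly all large ratios are therefore whole-number steps, and sizes read from them are coarse. A whole 0 stands for a range of small ratios whose width is not known here.

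The Sall4 probe stood at 0.07, -0.59 and -0.32 in the 3 pairs, listed as NT1p14 with TBVp13, then NT1p12 with TBVp12, then NT1 1 with TBV2 (mean -0.28 ± 0.33, SD, n = 3; limma, adjusted p = 1.00). The position of the probe relative to any deletion is unknown, so the genotype is not checked by it. Of 9 measured embryonic stem cell markers, 6 were below 0 in all 3 pairs, against 5.72% of all genes (list median -0.25, none past the threshold), and they include Pou5f1 at -0.59. With a pair turned in sign that count was 2 for NT1p14 with TBVp13, 0 for NT1p12 with TBVp12 and 0 for NT1 1 with TBV2. The table holds ratios and no intensities, so whether a member was expressed at all could not be read from it.

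As background, these families carry DNA-binding domains that define them: the homeodomain in Hox, Nkx, Dlx and sine oculis proteins, the paired domain in Pax, the zinc fingers of Gata, the HMG box of Sox, the winged helix of Fox and the T-box of Tbx. They set axial position and lineage in the embryo. In embryonic stem cells most of their genes are kept silent by Polycomb repression until differentiation. A smaller set, among them Foxo1, Foxo3, Foxp1, Foxk1 and Foxk2, is widely expressed.

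No member was called higher or lower in NT1. A value in all 3 pairs was available for 23 members, and 0 of them passed the threshold (limma, smallest adjusted p = 1.00), nor did any member reach an unadjusted p under 0.05. Over all genes 0 of 7978 passed, which is 0%, and 90 had an unadjusted p under 0.05. The median of the 23 means was -0.00, against 0.00 over all genes, with 11 means above 0 and 12 below. The mean exceeded the SD between pairs in 1 member, Nkx2-6. The 95% interval of a member's mean reached 0.30 to 2.12 to either side on the log2 scale, with a median of 0.36. Changes smaller than that could not be told from 0. The interval is not adjusted for the number of genes tested, so larger changes could miss the threshold as well. Rara, which is not a member, missed it with a mean of -1.13 (limma, unadjusted p = 0.0019). A ratio from bulk RNA cannot tell fewer cells of a type from less RNA per cell.

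**Figure D1:**
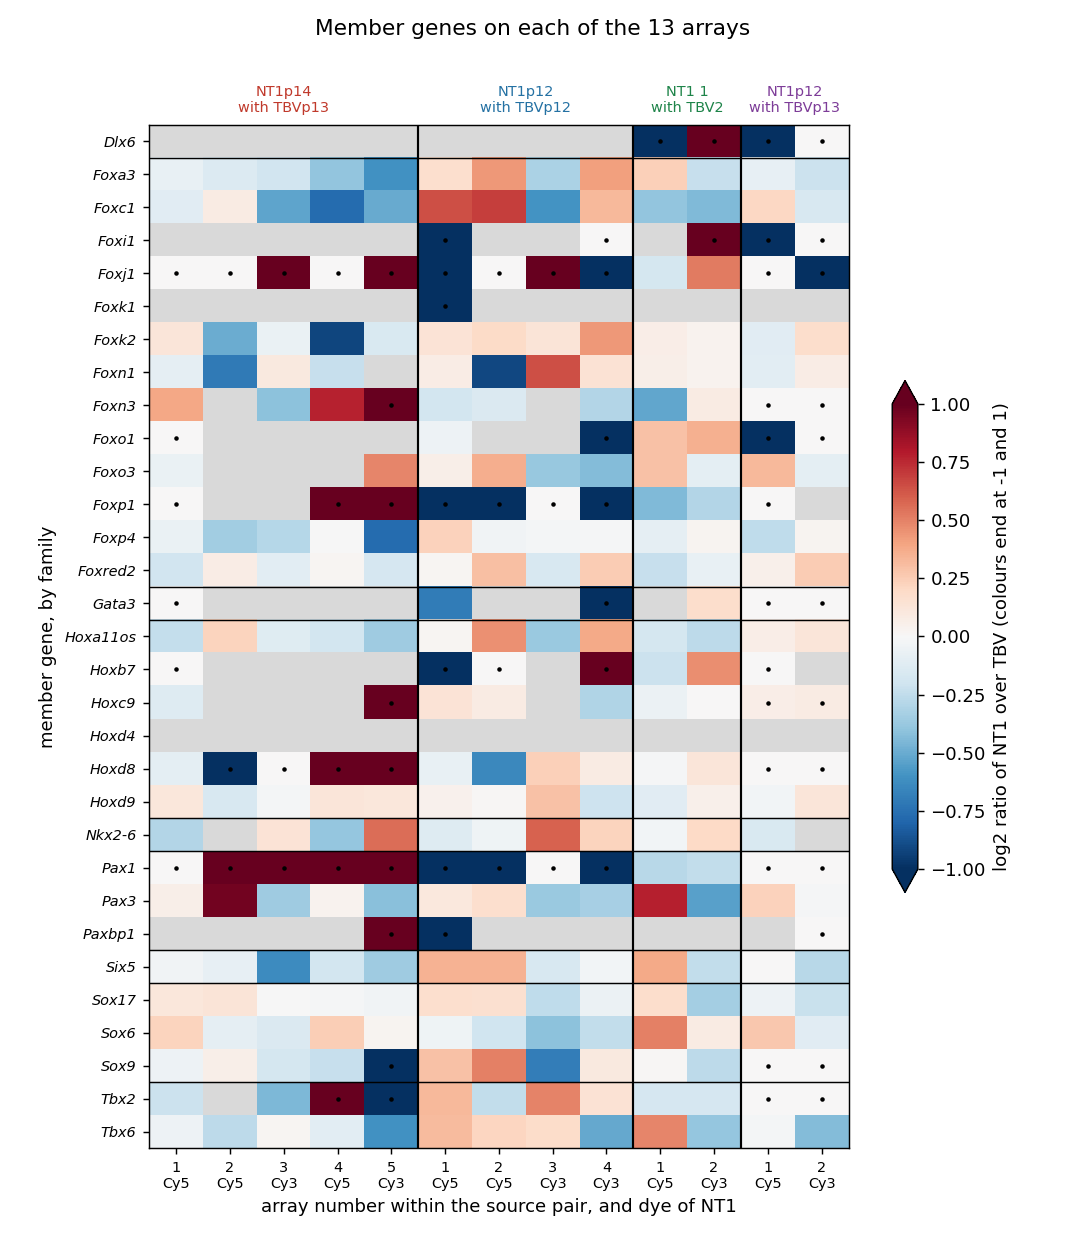
Log2 ratio of NT1 over TBV of the 31 members (rows, by family) on the 13 arrays (columns, by source pair, with the dye of NT1 under each). Red is higher in NT1, blue is higher in TBV, colours end at -1 and 1, grey has no value and a black point marks a value that is a whole number in at least 1 probe. Hoxd4 has no value on any array, and the saturated colours lie on arrays with whole numbers for most genes, such as Pax1, Foxp1 and Foxj1.

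Among the Hox genes, which lay out the head-to-tail axis, 4 of 6 were measured in all 3 pairs. Hoxd9 read 0.04, 0.04 and -0.03 in the pairs in that order, the narrowest spread of the measured members (mean 0.01 ± 0.04, SD, n = 3). Its 13 array values lay between -0.21 and 0.29 and none was a whole number. Hoxd8 read 0.48, -0.10 and 0.05, with a mean of 0.15 ± 0.30 (SD, n = 3). Its arrays in NT1p14 with TBVp13 stood at -0.10, -1, 0, 1 and 2, so that this pair held both the lowest and the highest of its 13 values. Hoxc9, a gene of the thoracic region, read 0.44, -0.09 and -0.03, and the first of these rested on an array at -0.13 and another at 1.

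Its 2 probes disagreed in sign in 2 of the 3 independent pairs, while in NT1p14 with TBVp13 neither had values in both orientations: -0.24 against 0.07 in the p12 pair (NT1p12 with TBVp12), and 0.02 against -0.08 for NT1 1 with TBV2. In NT1p12 with TBVp13 they stood at 0 and 0.15. Hoxa11os read -0.15, 0.12 and -0.22 (mean -0.08 ± 0.18, SD, n = 3). Whether its probe tells it from the opposite strand of Hoxa11 is not known here. Hoxb7 had values on 7 arrays, 5 of them whole numbers, from -1 to 1 with a median of 0. In Hoxb7 and Hoxd4 no mean of the 3 pairs could be formed.

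The forkhead genes made up the largest family, and 10 of its 13 members were measured in all 3 pairs, Foxred2 among them. Their median was -0.01, with 5 means above 0 and 5 below. Foxp1, a forkhead repressor whose splicing differs between stem cells and differentiated cells, had the widest spread of the measured members. It read 0, 3 and 5 on 3 arrays of NT1p14 with TBVp13 and -1, -1, 0 and -2 on the 4 arrays of NT1p12 with TBVp12. In NT1 1 with TBV2 it read -0.44 and -0.29. Its mean of 0.63 ± 2.29 (SD, n = 3) was the highest of the members and changed sign with 1 pair left out: without NT1p14 with TBVp13 it was -0.68. Of its 10 values 8 were whole numbers, and the 2 groups of arrays touched at 0.

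Foxc1, a regulator of mesenchyme and of the anterior eye, had the lowest mean of the family at -0.18 ± 0.39 (SD, n = 3). It read -0.12, 0.08, -0.53, -0.77 and -0.50 in NT1p14 with TBVp13 and 0.65, 0.69, -0.60 and 0.32 in NT1p12 with TBVp12. The groups overlapped through array 3 of the latter, which alone stood below 0 there. In NT1 1 with TBV2 both arrays were low, at -0.40 and -0.44. Foxa3, a liver and gut factor, read -0.07, -0.14, -0.19, -0.39 and -0.61 in NT1p14 with TBVp13, below 0 on every array. In NT1p12 with TBVp12 it read 0.17, 0.43, -0.32 and 0.41, and array 3 was again the one below 0. Foxk2, a widely expressed repressor, stood at 0.12, -0.49, -0.07, -0.92 and -0.15 in the former pair and at 0.14, 0.19, 0.13 and 0.43 in the latter.

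Foxj1, the master gene of motile cilia, read 0, 0, 1, 0 and 1 in NT1p14 with TBVp13 and -1, 0, 1 and -1 in NT1p12 with TBVp12. The 1 values all sat on arrays with NT1 in Cy3, and its dye effect (the part of the ratio that keeps its sign when the dyes are swapped) was -0.37 ± 0.13 (SD, n = 3). Foxn3, a transcriptional repressor linked to cell cycle checkpoints, read 0.38, -0.41, 0.77 and 2 on 4 arrays of NT1p14 with TBVp13 and -0.18, -0.15 and -0.29 on 3 arrays of NT1p12 with TBVp12. Its pair values were 0.69, -0.23 and -0.22. Foxp4, a relative of Foxp1 in lung and heart, was below 0 on every array of NT1p14 with TBVp13, from -0.77 to -0.00, and both of its probes were below 0 in that pair (-0.22 and -0.45). Its probes differed in sign in NT1 1 with TBV2, at -0.15 and 0.08.

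Foxo3, which acts downstream of insulin signalling, had a mean of 0.07 ± 0.16 (SD, n = 3). It is uncertain, since only 1 of its 2 probes gave a value in NT1p14 with TBVp13 and only the other one gave values for the remaining pairs in both orientations. Foxn1, the factor of thymic epithelium, stood at -0.03 ± 0.09 and Foxred2 at -0.04 ± 0.13 (SD, n = 3). Foxo1, a relative of Foxo3 that takes part in pluripotency, had 7 values. NT1p14 with TBVp13 gave 0, NT1p12 with TBVp12 gave -0.05 and -8, NT1 1 with TBV2 gave 0.29 and 0.35, and NT1p12 with TBVp13 gave -1 and 0. The lone -8 was a whole number on array 4. Foxi1, a factor of the inner ear and of ionocytes, had 5 values from -1 to 2, and Foxk1 had a single value of -2. All 6 of these last values were whole numbers.

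**Figure D2:**
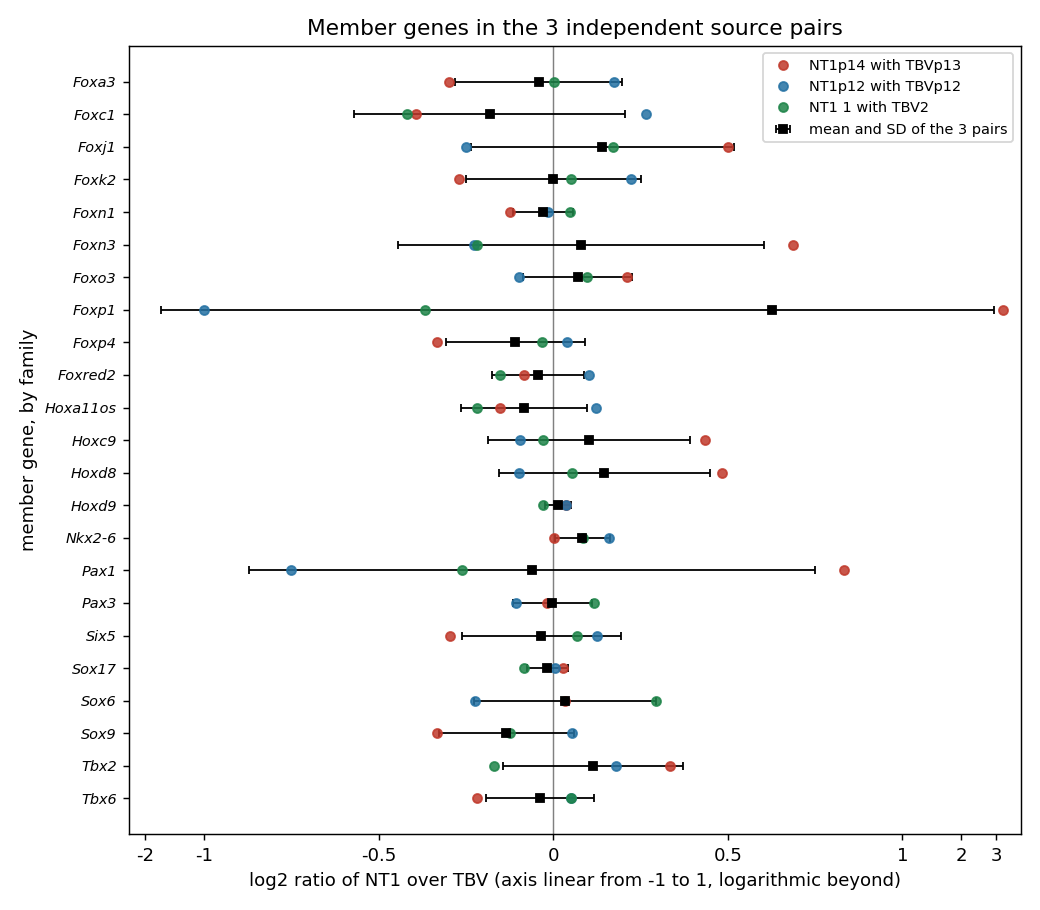
Log2 ratio of NT1 over TBV for the 23 members measured in all 3 independent source pairs (rows, by family). Coloured points are the pairs, black squares and bars the mean and the SD of the 3 pairs, and the axis is logarithmic beyond -1 and 1. The bars of all members except Nkx2-6 reach across 0, and Foxp1 and Pax1 are the widest.

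Of the Pax genes, Pax1, a factor of the sclerotome that forms the vertebrae, separated the pairs by the most steps after Foxp1. It read 0, 1, 1, 1 and 1 in NT1p14 with TBVp13 and -1, -1, 0 and -1 in NT1p12 with TBVp12. It read -0.28 and -0.25 in NT1 1 with TBV2 and 0 on both arrays of NT1p12 with TBVp13. The 2 groups touched at 0, on array 1 of the former and array 3 of the latter, and 11 of the 13 values were whole numbers. Pax3, a factor of neural crest and muscle progenitors, had a mean of -0.00 ± 0.11 (SD, n = 3) although its arrays ran from -0.54 to 0.96. Arrays with NT1 in Cy5 gave a mean of 0.42 and those with TBV in Cy5 a mean of -0.43. Paxbp1 had 3 values, -4, 0 and 5, all whole numbers.

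Six5, a homeodomain factor of the myotonic dystrophy locus, read -0.04, -0.08, -0.63, -0.18 and -0.35 in NT1p14 with TBVp13, all below 0. In NT1p12 with TBVp12 it read 0.34, 0.34, -0.16 and -0.03, with NT1 in Cy5 on the first 2 arrays and in Cy3 on the last 2, so the groups overlapped. Its pair values were -0.30, 0.13 and 0.07, and the mean was -0.03 ± 0.23 (SD, n = 3). None of its 13 values was a whole number. Nkx2-6, a gene of pharyngeal endoderm and heart, was the only member above 0 in all 3 pairs, at 0.00, 0.16 and 0.09 (mean 0.08 ± 0.08, SD, n = 3). The first of these is about 0, and the arrays of that pair stood at -0.29, 0.14, -0.39 and 0.56. With NT1 in Cy5 only its mean was -0.15.

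The Sox genes with values were Sox6, Sox9 and Sox17. Sox17, a factor of primitive and definitive endoderm, stood at 0.03, 0.00 and -0.08 (mean -0.02 ± 0.06, SD, n = 3; 95% interval -0.32 to 0.28). It had no whole number, and arrays with NT1 in Cy5 gave 0.14, those with TBV in Cy5 -0.17. Sox9, which directs cartilage and testis, read -0.05, 0.06, -0.18, -0.23 and -1 in NT1p14 with TBVp13. The arrays of NT1p12 with TBVp12 read 0.30, 0.51, -0.69 and 0.10, and the mean was -0.13 ± 0.19 (SD, n = 3). Sox6, a partner of Sox9 in cartilage and a regulator of red cell and muscle genes, was below 0 on all 4 arrays of NT1p12 with TBVp12, at -0.04, -0.20, -0.41 and -0.25, and above 0 on both arrays of NT1 1 with TBV2, at 0.50 and 0.08. Its 2 probes had the same sign in these pairs and opposite signs in NT1p14 with TBVp13 (0.11 and -0.07).

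Tbx2, a T-box repressor of heart and limb, read -0.22, -0.45, 3 and -1 on 4 arrays of NT1p14 with TBVp13, so its pair value of 0.33 rested on array 4. Its mean was 0.11 ± 0.26 (SD, n = 3) and -0.15 without that array. Tbx6, which commits cells to presomitic mesoderm, stood at -0.22, 0.05 and 0.05 (mean -0.04 ± 0.16, SD, n = 3). Gata3, a zinc finger factor of trophectoderm and T cells, had 6 values: 0, then -0.70 and -3 in NT1p12 with TBVp12, 0.18 in NT1 1 with TBV2, and 0 and 0 in NT1p12 with TBVp13. Dlx6, a factor of jaw and forebrain, had 4 values between -1 and 1, all whole numbers as deposited. Neither gene allowed a mean of the 3 pairs.

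Agreement between pairs was counted next. Above 0 in all 3 pairs was 1 of 23 members, against 8.86% of all genes, and 0 of 23 were below 0 in all 3, against 5.72%. With NT1p14 with TBVp13 turned in sign, 8 of 23 had 1 sign in all pairs, against 30.2% of all genes: Foxa3, Foxk2, Six5 and Tbx6 above 0, and Foxn3, Foxp1, Hoxc9 and Pax1 below. With NT1p12 with TBVp12 turned there were 9 of 23, against 40.1%, and with NT1 1 with TBV2 turned 5 of 23, against 13.2%. With 23 members none of these counts says anything particular to the families. The median of the member means was 0.01, -0.02 and 0.03 in the 3 turned settings.

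Within a pair, a sign shared by all arrays with a value (4 or more arrays, both orientations) was also uncommon. In NT1p14 with TBVp13, 3 of 20 members were below 0 on every array, Foxa3, Foxp4 and Six5, against 8.58% of all genes, and 0 of 20 were above 0, against 7.95%. In NT1p12 with TBVp12, Foxk2 was above 0 on every array (1 of 21, against 10.5%) and Sox6 below (1 of 21, against 12.1%).

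The next comparison asked which members read differently in NT1p14 with TBVp13 and in NT1p12 with TBVp12, beyond the spread of repeat hybridisations. All 13 arrays entered one limma fit with the 4 source pairs and a dye term. The arrays of a pair carry the same source names and were taken as repeats of the same RNA, which the labels do not state. The fit therefore compares those RNA sources and neither the lines nor the passages. Pax1 was higher in the former pair by 1.58 ± 0.25 (SE; limma, adjusted p = 0.014) and Foxp1 by 3.85 ± 0.97 (SE; limma, adjusted p = 0.034). Six5 was lower in the former, with a difference of -0.42 ± 0.12 (SE; limma, adjusted p = 0.032). These were 3 of 23 members, against 20.4% of all genes (1699 of 8344), so the families gave no more calls than the table as a whole. By direction, 11.4% of all genes were higher and 8.93% lower.

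These calls hold only if both pairs have their labelled direction, which is not settled. With one of them turned in sign, 0 of 23 members passed, against 0.24% of all genes (20 of 8344). Since the 2 pairs opposed each other over all genes, a turn makes most differences smaller. The drop therefore cannot tell which direction is right. Pax1 then differed by -0.08, Foxp1 by -1.85 and Six5 by 0.17 with NT1p14 with TBVp13 turned (limma, adjusted p = 0.93, adjusted p = 0.61 and adjusted p = 0.67), and by the same sizes with the opposite sign with NT1p12 with TBVp12 turned.

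With the labelled directions, single arrays moved several of these calls across the threshold, in most cases with a difference of about the same size. Without array 1, 2 or 4 of NT1p12 with TBVp12, 0 members and 0 genes passed, with Pax1 at adjusted p = 0.056, 0.060 and 0.051, although its difference stayed between 1.44 and 1.54. Without array 3 of that pair, 5 members passed, adding Foxc1 at -0.90 (adjusted p = 0.015) and Foxa3 at -0.60 (adjusted p = 0.030). Over all genes 1971 of 8330 passed in that setting. Without array 3 of NT1p14 with TBVp13, Foxn3 passed as well, at 1.26 (adjusted p = 0.037), beside 1784 of 8264 genes. Without array 4 of NT1p14 with TBVp13, Pax1 alone of the members passed, beside 1077 of 8116 genes. Without array 5 of it Foxp1 went to 2.53 (adjusted p = 0.12), and without array 1 of it to 5 (adjusted p = 0.0045). Foxp1 also missed the threshold without either array of NT1 1 with TBV2 (adjusted p = 0.054 in both), with a difference of 3.90 in each. Six5 missed it without array 2, 3 or 4 of NT1p14 with TBVp13 (adjusted p = 0.0502, 0.0511 and 0.0504), with differences of -0.42, -0.39 and -0.40. With all arrays scaled to the same spread Foxp1 went to 1.85 (adjusted p = 0.067) and Six5 to -0.29 (adjusted p = 0.20).

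**Figure D3:**
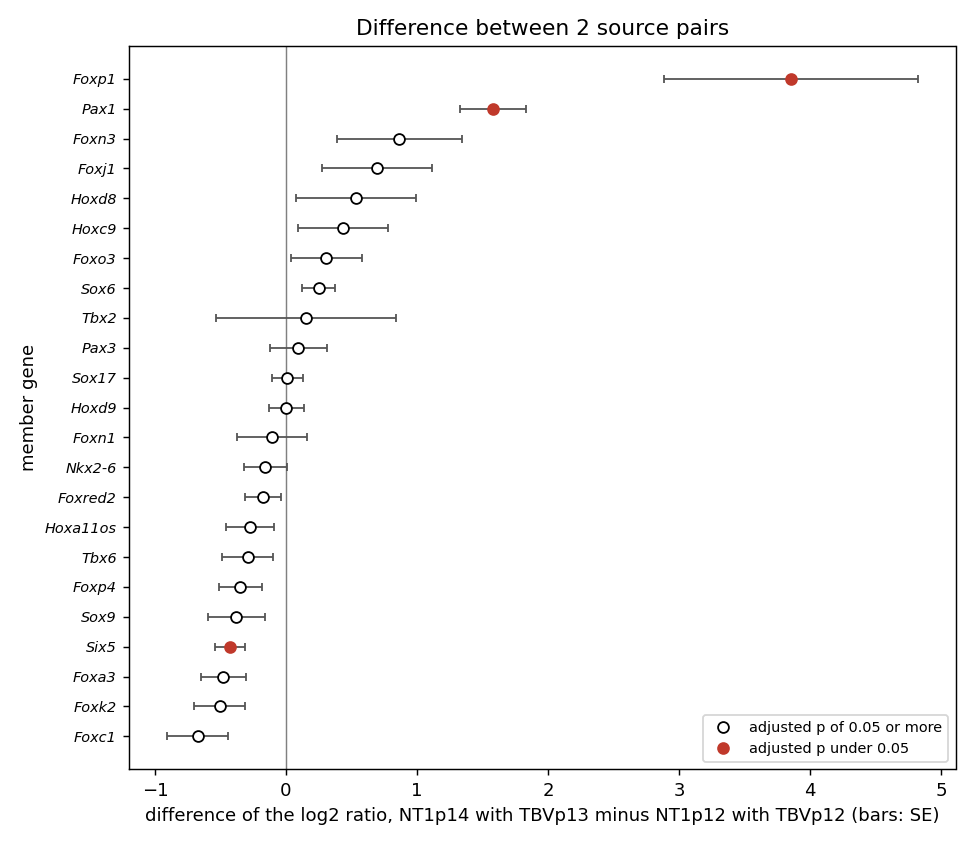
Log2 ratio of NT1 over TBV in NT1p14 with TBVp13 minus that in NT1p12 with TBVp12 for the 23 members tested, sorted by size, with bars for the SE of the 13-array limma fit. With both pairs in their labelled direction, filled points have an adjusted p under 0.05: Foxp1 at 3.85, Pax1 at 1.58 and Six5 at -0.42.

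The 3 promoters are shown because these genes were the members called in the comparison of the pairs with all arrays and the labelled directions. Each runs from 250 bases before to 50 bases after the gene's start in RefSeq (GRCm38.p6), and capitals mark matches to 6 motifs searched on both strands. Pax1 lies at chr2:147364744-147365043 on the plus strand, Six5 at chr7:19094294-19094593 on the plus strand, and Foxp1, the first of 3 listed starts, at chr6:99520944-99521243 on the minus strand.
Pax1: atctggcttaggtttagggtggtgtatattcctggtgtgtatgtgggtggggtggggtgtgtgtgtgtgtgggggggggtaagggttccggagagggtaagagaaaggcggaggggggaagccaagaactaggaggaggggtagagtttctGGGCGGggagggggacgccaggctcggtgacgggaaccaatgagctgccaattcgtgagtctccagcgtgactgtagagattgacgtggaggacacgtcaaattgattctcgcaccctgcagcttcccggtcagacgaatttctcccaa
Six5: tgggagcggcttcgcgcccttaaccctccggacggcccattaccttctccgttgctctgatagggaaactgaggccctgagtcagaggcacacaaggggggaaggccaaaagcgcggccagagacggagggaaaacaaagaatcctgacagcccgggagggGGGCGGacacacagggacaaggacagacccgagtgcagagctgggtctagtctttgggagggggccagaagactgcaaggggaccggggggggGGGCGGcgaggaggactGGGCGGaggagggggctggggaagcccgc
Foxp1: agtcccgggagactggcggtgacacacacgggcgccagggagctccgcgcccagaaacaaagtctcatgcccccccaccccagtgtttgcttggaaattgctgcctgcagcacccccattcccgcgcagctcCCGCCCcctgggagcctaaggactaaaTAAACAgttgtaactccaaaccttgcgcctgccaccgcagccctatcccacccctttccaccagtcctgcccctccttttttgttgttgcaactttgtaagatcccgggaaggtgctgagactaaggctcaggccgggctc

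The motifs were a TATA box (TATAAA), a GC box (GGGCGG), a forkhead core (TAAACA), a Sox core (AACAAT), the octamer (ATGCAAAT) and a GATA site (AGATAA), none of them overlapping in these windows. The GC box, a site for Sp factors, was found 1 time in Pax1, at base -99 from the start, 3 times in Six5 and 1 time in Foxp1, on the other strand. Of 32851 promoters of 300 bases in the same table, 35.7% hold it. Foxp1 also held a forkhead core, at base -91, as do 13.4% of those promoters. The TATA box (13.6%), the Sox core (10.7%), the octamer (1.74%) and the GATA letters (11.2%) were not in the 3 windows. CpG dinucleotides numbered 13, 17 and 13, against a median of 7 and quartiles of 3 and 20. A match is a description of the letters only.

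In the scatter of the 2 pairs the members lay along the same falling band as all genes. Opposite signs were found in 17 of 23 members and in 5609 of 7978 genes (70.3%). Across the 23 members Pearson r was -0.87, and -0.69 over 21 without Foxp1 and Pax1. Members share arrays, so these values are descriptions. The spread over members was 0.75 in NT1p14 with TBVp13 (0.36 without Foxp1), 0.30 in NT1p12 with TBVp12 and 0.17 for NT1 1 with TBV2 (SD), against 0.49, 0.33 and 0.23 over all genes.

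**Figure D4:**
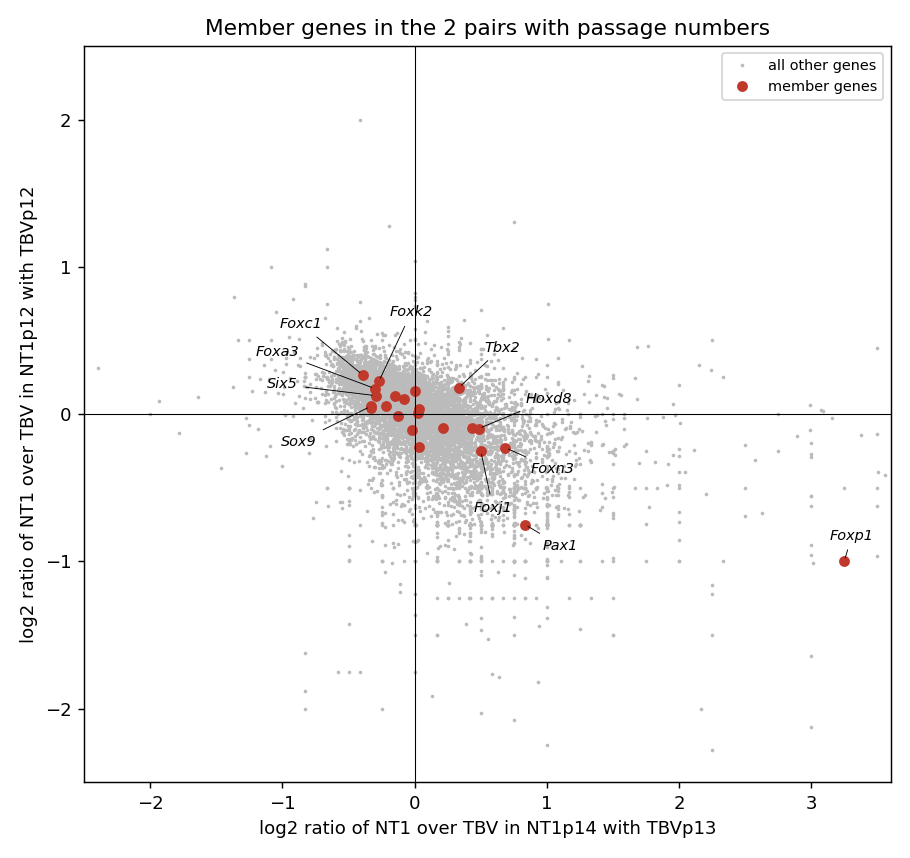
Log2 ratio of NT1 over TBV in NT1p14 with TBVp13 (x axis) against NT1p12 with TBVp12 (y axis), with 1 point per gene. Red points are the 23 members, grey points the 7955 other genes, of which 15 lie outside the axes. Foxp1 and Pax1 lie lower right and Foxc1, Foxk2, Foxa3 and Six5 upper left.

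Whole numbers went with the direction of this difference. Of the 8 members with a whole number on some array, 7 read higher in NT1p14 with TBVp13, with a median difference of 0.62, and Sox9 was the exception. Of the 15 without one, 10 read lower, with a median of -0.18. Over all genes, 2697 of the 3880 with a whole number on some array read higher (69.5%), with a median of 0.42. Of the 4464 genes without one, 2662 read lower, with a median of -0.10. On probes without whole numbers, 4 of 15 members passed, against 23.2% of all genes (1228 of 5287): Six5 at -0.42, Foxc1 at -0.67, Foxa3 at -0.48 and Foxk2 at -0.51, all lower in NT1p14 with TBVp13 (limma, adjusted p = 0.029, adjusted p = 0.025, adjusted p = 0.042 and adjusted p = 0.046). Pax1 and Foxp1 have no probe without whole numbers and could not be tested there.

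Fibroblast markers also moved between these pairs. Of 9 measured, 6 passed as higher in NT1p14 with TBVp13, against 11.4% of all genes, and 0 as lower, against 8.93%, and their median was 0.79 in that pair against -0.45 in NT1p12 with TBVp12, while NT1 1 with TBV2 had -0.56. Embryonic stem cell markers passed as higher in 4 of 9. Their part in the readings of Foxp1, Pax1 and Six5 was not tested. Of 7 endoderm markers 2 passed as higher and 1 as lower, of 5 mesoderm markers 2 as higher, and none of 6 neuroectoderm or 2 trophectoderm markers passed. With NT1p14 with TBVp13 turned, 0 of the 9 fibroblast markers and 3 of the 9 stem cell markers passed as higher. Over all genes 15 of 8344 passed as higher in that setting. In the labelled direction, 740 of 3880 genes with a whole number on some array passed as higher, against 214 of 4464 without one. The markers were not split by whole numbers, so the share over all genes may not be the right one to set beside them.

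The dye effect was tested in the same way. In the fit of the dye effect over the 3 pairs 0 of 23 members passed (limma, smallest adjusted p = 0.16), against 0% of all genes, while 7 members and 1810 genes had an unadjusted p under 0.05. These were Foxj1, Pax3, Six5, Sox9, Nkx2-6, Hoxd8 and Tbx6. Pax3 had the largest dye effect of the 7, at 0.42 ± 0.21 (SD, n = 3) toward Cy5, and Six5 stood at 0.24 ± 0.06. Among probes without whole numbers, Pax3 and Six5 passed (limma, adjusted p = 0.031 and adjusted p = 0.041). These were 2 of 15 members, beside 456 of 5098 genes. Over all probes neither passed. The fit of the difference between pairs held a dye term, and without that term the difference of Six5 was -0.38 (limma, adjusted p = 0.18).

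NT1p12 with TBVp13 shares a source with each pair compared, so its values stand beside theirs without a test. Six5 was at -0.14 in it, Foxa3 at -0.15, Foxc1 at 0.02 and Foxk2 at 0.03. Pax1, Hoxd8, Foxn3, Sox9 and Tbx2 were at 0, from whole numbers on both arrays. Foxp1 had a value on 1 of its arrays only, a whole 0.

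Genes that work with these families were taken as lists, with both pairs in their labelled direction. Of the TALE homeodomain partners of Hox proteins 4 of 9 were measured (median -0.02). Meis3, a TALE cofactor, was lower in NT1p14 with TBVp13 than in NT1p12 with TBVp12 by a difference of -0.85 ± 0.22 (SE; limma, adjusted p = 0.030). Of the partners of sine oculis, Lhx and Gata factors 7 of 18 were measured (median -0.06). Ssbp4, which binds the LIM cofactor Ldb1, was higher in the former pair by 0.99 ± 0.28, and Tal1, a partner of Gata factors in blood, was lower with -0.81 ± 0.20 (SE; limma, adjusted p = 0.036 and adjusted p = 0.027). The calls were thus 1 of 4 TALE partners, as lower, and of the 7 other partners 1 as higher and 1 as lower. All 5 measured Groucho corepressors missed the threshold in both tests, with a median of 0.00.

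The retinoic acid pathway, which switches on Hox genes, had 7 of 17 members measured in the 3 pairs and none past a threshold. Rara, a retinoic acid receptor, stood at -0.83, -1.62 and -0.93 in the 3 pairs (mean -1.13 ± 0.43, SD, n = 3; limma, adjusted p = 1.00). Of 11 other measured homeobox and T-box genes, median -0.03, none passed in NT1 against TBV. Between the pairs Irx1 and Emx1, homeobox genes of patterning and of the cortex, were lower in NT1p14 with TBVp13, with differences of -0.72 ± 0.14 and -0.76 ± 0.20 (SE; limma, adjusted p = 0.017 and adjusted p = 0.032). These were 2 of 11, against 20.4% of all genes past the threshold and 8.93% past it as lower. With NT1p14 with TBVp13 turned in sign, no TALE, sine oculis, Lhx or Gata partner passed between the pairs. No other homeobox or T-box gene of these lists passed either. Of the retinoic acid genes 1 of 9 passed in that setting, against 0.24% of all genes (20 of 8344).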

How the data were processed

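The deposited table holds 1 value per probe and array, deposited by the authors and taken here as a log2 ratio of both dyes. The log base, numerator, scanner and normalisation are not given in the sources used here. Each array was centred on its median and turned to NT1 over TBV by the dye labels. Probes of a gene were averaged per array. For each pair the means of both dye orientations were averaged with equal weight, so that a dye effect cancels. The arrays of a pair were taken as technical repeats and counted as 1 replicate. Genes were tested in limma 3.58.1 (R 4.3.3; lmFit, eBayes), two-sided, with Benjamini-Hochberg adjustment over all genes at 0.05. The scripts were tested on simulated data. Probes were named from the platform annotation: 11723 had 1 symbol, 806 several (3 of them with a member's symbol, not used) and 7676 none. All 31 members kept their symbol in RefSeq by Entrez ID, and 21 had a promoter there. Named genes were 5 lineage regulators with values (Gata3, Sox17, Foxo1, Foxp1 and Foxj1), the highest and lowest mean of each family, members past a threshold, and those of 1 sign in all pairs and size 0.25 or more; the other members were named because the set is small. Members and lists were chosen with earlier results of these data known. Python 3.11.15 and matplotlib 3.10.9 made the figures. Array number limits the precision, and 14314 to 18381 probes per array had a value. Alternatives covered centring, scaling, dye orientation, probe level, missing and whole numbers, moderation, turned pairs and left-out pairs or arrays; turning a pair in the comparison of pairs was added after the data were seen.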

Additional observations from a re-analysis of the deposited data

Results flagged for a closer look

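Among 41 groups of 4 or 5 arrays of a member, 5 held an array far from the others. Chance flags about 1 in 20 groups of unrounded values, a rate that does not apply to groups of whole numbers. In NT1p12 with TBVp12, array 1 read 0.23 for Foxp4 against -0.03 to -0.02, and array 4 read -0.51 for Tbx6 against 0.19 to 0.31. Array 3 of that pair read 0 for Pax1 against -1 on the other 3. In NT1p14 with TBVp13, array 1 read 0 for Pax1 against 1 on the other 4, and array 5 read -1 for Sox9, a whole number, against -0.23 to 0.06. The Pax1 groups hold whole numbers only, so a single step by 1 array is enough to set it apart.

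NT1p14 with TBVp13 minus NT1p12 with TBVp12 gave, in the test of the difference itself, 1.58 for Pax1, 3.85 for Foxp1 and -0.42 for Six5. These rest on repeat hybridisations of 1 source pair each. With one pair turned in sign none of the 3 passed.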

How the results depend on the processing

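In NT1 against TBV, 0 members passed under every alternative run, and 0 genes except 2 with 13 arrays and pairs as random blocks (consensus correlation 0.25, 5861 genes, no member). The median of the members went to -0.055 with TBV in Cy5 only and to -0.036 over genes with a value on every array. Between the pairs, 1699 genes and 3 members became 462 and 1 with scaled arrays. At probe level 3534 of 16837 probes passed, and without a dye term 1060 genes. Leaving out 1 array gave 0 to 2278 genes and 0 to 5 members. Members other than Pax1, Foxp1 and Six5 also passed in some settings (limma). Foxp4 did at probe level (-0.47, adjusted p = 0.030). Foxc1 did over genes with a value on every array (-0.67, adjusted p = 0.046), beside 1716 of 5861 genes. Foxk2 did without array 1 of NT1p14 with TBVp13 (-0.63, adjusted p = 0.022), beside 2278 of 7999 genes. The dye effect went from 0 to 1 gene with scaled arrays, 456 genes and 2 members on probes without whole numbers (5098 genes tested), and 0 to 1 gene with a pair left out.

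Signs of means under the threshold turned over in these settings. Scaled arrays gave Foxp1 -0.0035 and Pax3 0.028. Adding the fourth pair gave Foxj1 -0.019 and Pax3 0.026. The random block gave Pax3 0.011. NT1 in Cy5 only gave Foxc1 0.0020, Foxj1 -0.23, Hoxd8 -0.13, Nkx2-6 -0.15, Pax3 0.42, Six5 0.21, Sox17 0.14, Sox9 0.11 and Tbx6 0.20. TBV in Cy5 only gave Pax1 0.085, Sox6 -0.10 and Tbx2 -0.19. Turning NT1p14 with TBVp13 gave Foxc1 0.080, Foxj1 -0.19, Foxp1 -1.54, Hoxa11os 0.019, Hoxd8 -0.18, Pax3 0.0092, Six5 0.16, Sox9 0.087, Tbx2 -0.11 and Tbx6 0.11. Turning NT1p12 with TBVp12 gave Nkx2-6 -0.023, Pax1 0.44, Pax3 0.069 and Tbx2 -0.0056. Turning NT1 1 with TBV2 gave Foxc1 0.097, Hoxa11os 0.063, Pax1 0.12, Sox17 0.039 and Sox6 -0.16.

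With 1 pair or array left out, Foxj1 ran from -0.039 to 0.34, Foxp1 from -0.68 to 1.44, Hoxd8 from -0.022 to 0.31, Pax1 from -0.51 to 0.29, Pax3 from -0.062 to 0.050, Six5 from -0.11 to 0.097, Sox17 from -0.039 to 0.017, Sox6 from -0.096 to 0.16, Tbx2 from -0.15 to 0.38 and Tbx6 from -0.095 to 0.052. The differences of Pax1, Foxp1 and Six5 were counted gene by gene, so that a setting enters the count once for each of these genes tested in it. On this count they stayed past the threshold in 31 cases and missed it, with the same direction, in 22. These are not numbers of settings in which all of these genes passed together. With scaled arrays, for example, Pax1 stayed past the threshold while Foxp1 and Six5 missed it. In an alternative chosen after seeing the data, turning either NT1p14 with TBVp13 or NT1p12 with TBVp12 left 20 genes and 0 members past the threshold; the former turn reversed the differences to -0.079 for Pax1, -1.85 for Foxp1 and 0.17 for Six5. Beyond the turned signs, the cause was not tested. The number of pairs limits all of these values.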
